A study of Mus musculus with 6 samples.

Results

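The genes described here are 4 nuclear receptors for steroid hormones (Esr1, Pgr, Nr3c1 and Nr3c2), 2 genes of membrane-associated steroid responses (Pgrmc1 and Gper1) and Greb1, a gene induced by oestrogen. They were chosen by name, and all 7 were found by Ensembl identifier among the 36727 genes of the deposited table. The RNA came from ovary of adult female F4 inbred Swiss albino mice, 135 to 140 days old, labelled estrous-phased, and was selected for polyadenylated transcripts. High litter size is represented by 3 libraries, replicates 1, 3 and 4, and low litter size by 3 libraries, replicates 1, 2 and 5, with no treatment or allele named for either. Values by library follow this order throughout. The labels give litter size as the only difference between the groups and do not say how the phase was determined, whether a library is 1 animal, or how the ovary was dissected. The p-values therefore measure the spread between these libraries, which may be technical.

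Steroid receptors of the nuclear family wait in the cytoplasm or nucleus in a complex with heat shock chaperones, bind their hormone, and then act as transcription factors on DNA. Esr1 (oestrogen receptor alpha) recruits coactivators at oestrogen response elements, and both Pgr (progesterone receptor) and Greb1 are classical genes induced through it. In the female tract Esr1 and Pgr are found in stroma, smooth muscle and epithelium. In the ovary Pgr is induced in granulosa cells of the follicle by the surge of luteinizing hormone, whereas granulosa cells rely more on Esr2, the oestrogen receptor beta. Nr3c1 (glucocorticoid receptor) is present in nearly every tissue, Nr3c2 (mineralocorticoid receptor) in fewer, Pgrmc1 encodes a haem-binding membrane protein linked to progesterone responses, and Gper1 encodes a G protein-coupled receptor described as responding to oestrogen.

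Esr1 (ENSMUSG00000019768) lies on chromosome 10 from 4611593 to 5005614 on the plus strand, in GRCm38 coordinates of the GENCODE M21 annotation. Pgr (ENSMUSG00000031870) lies on chromosome 9 from 8899833 to 8968611 on the plus strand, and Greb1 (ENSMUSG00000036523) on chromosome 12 from 16670615 to 16800886 on the minus strand. Nr3c2 (ENSMUSG00000031618) lies on chromosome 8 from 76899442 to 77245012, Gper1 (ENSMUSG00000053647) on chromosome 5 from 139423151 to 139427800 and Pgrmc1 (ENSMUSG00000006373) on chromosome X from 36598206 to 36606079, all on the plus strand. The identifier of Nr3c1 is ENSMUSG00000024431. All 7 are annotated as protein-coding. Gper1 sits inside the span of 3110082I17Rik, a protein-coding gene on the opposite strand that is also in the table. Whether their exons overlap was not examined. No source used here says whether the counting used strand, so reads of any shared exons could not be told apart.

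Pgr and Greb1 had the largest differences between the groups among the 7 genes, and both are known to be induced through Esr1, so the 250 bases before their start are shown (RefSeq, GRCm38.p6, read 5′ to 3′ on the strand of the gene). Capitals mark matches on either strand to GGTCA, which is 1 arm of the oestrogen response element, to TATAAA, to the GC box GGGCGG and to the CCAAT box. The window of Pgr is chr9:8899583-8899832, plus strand, and that of Greb1 is chr12:16800887-16801136, minus strand, before the start of its longest span.
Pgr: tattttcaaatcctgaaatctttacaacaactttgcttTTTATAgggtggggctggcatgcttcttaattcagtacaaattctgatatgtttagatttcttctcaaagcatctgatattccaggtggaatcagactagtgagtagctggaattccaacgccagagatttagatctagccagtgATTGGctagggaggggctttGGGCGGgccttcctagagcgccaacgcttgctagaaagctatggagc
Greb1: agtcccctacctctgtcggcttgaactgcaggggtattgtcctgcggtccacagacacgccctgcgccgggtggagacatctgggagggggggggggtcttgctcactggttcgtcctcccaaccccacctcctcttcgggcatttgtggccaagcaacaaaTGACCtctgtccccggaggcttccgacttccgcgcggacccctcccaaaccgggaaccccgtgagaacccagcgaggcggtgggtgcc
The window of Greb1 held 1 match to an arm of the element, at -88 to -84, and the window of Pgr held 0, with a TATAAA match at -212 to -207, a CCAAT match at -67 to -63 and a GC box at -47 to -42. A later start of Greb1 in the same table, not shown, held 2 arm matches. Of 32817 such windows of the RefSeq table, 35.23% held at least 1 arm match, so the match in Greb1 is a common one. The full element, GGTCA and TGACC with 3 bases of any kind between them, reads alike on both strands and was in 0.06% of all windows and in 0 of the 8 windows of the 6 genes that the table holds. The element of Pgr, Nr3c1 and Nr3c2, AGAACA and TGTTCT with 3 bases of any kind between them, was in 0.01% of all windows and also in 0 of these 8. These matches describe letters in short windows and are not binding sites.

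The libraries held 17620903 to 24758222 estimated counts, a depth at which 1 count is 0.0390 to 0.0624 CPM (counts scaled to a common library total after TMM normalization). Libraries stood apart by their cell type markers. The 9 granulosa cell markers summed to 37.6 and 27.6 CPM in high replicates 1 and 3 and 52.5 CPM in low replicate 2, against 508, 461 and 375 CPM in high replicate 4 and low replicates 1 and 5. Fshr, the receptor for follicle-stimulating hormone in granulosa cells, had 0 counts in high replicates 1 and 3, and Amh, the anti-Mullerian hormone gene, had 0 in low replicate 2. The 10 oocyte markers summed to 2.61, 3.93 and 4.27 CPM in those same 3 libraries and to 16.8 to 73.4 CPM in the other 3. The 7 adipocyte markers reached 21340 CPM in high replicate 3 and at most 2707 CPM elsewhere. Results are therefore also given for high replicate 4 against low replicates 1 and 5, without the 3 libraries of low ovarian markers. With 1 high library left, those values describe that library.

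Between high and low litter size, Pgr, Greb1 and Esr1 had lower levels in all 3 high libraries than in any low library, and Nr3c1 and Pgrmc1 had higher levels. Nr3c2 and Gper1 overlapped between the groups. None of the 7 genes passed the edgeR quasi-likelihood test at an adjusted p of 0.05, a test that 1 of 16455 genes passed (0.00608%). At an unadjusted p under 0.05, edgeR gave 4 of the 7 (Greb1, Pgr and Esr1 lower, Nr3c1 higher), where 14.4% of all genes tested had such a p (6.56% higher and 7.82% lower). The groups did not overlap for 5 of the 7, against 19.5% of all genes tested, with 2 of the 7 above (8.75% of all genes) and 3 below (10.8%). DESeq2 called 2 of the 7 (Pgr and Greb1, both lower, where 6.24% of genes were called, 2.15% higher and 4.08% lower), the edgeR likelihood ratio test also called Pgr and Greb1 (3.83% of genes, 2.88% lower), and limma voom called 0 (0.0182%).

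**Figure D1:**
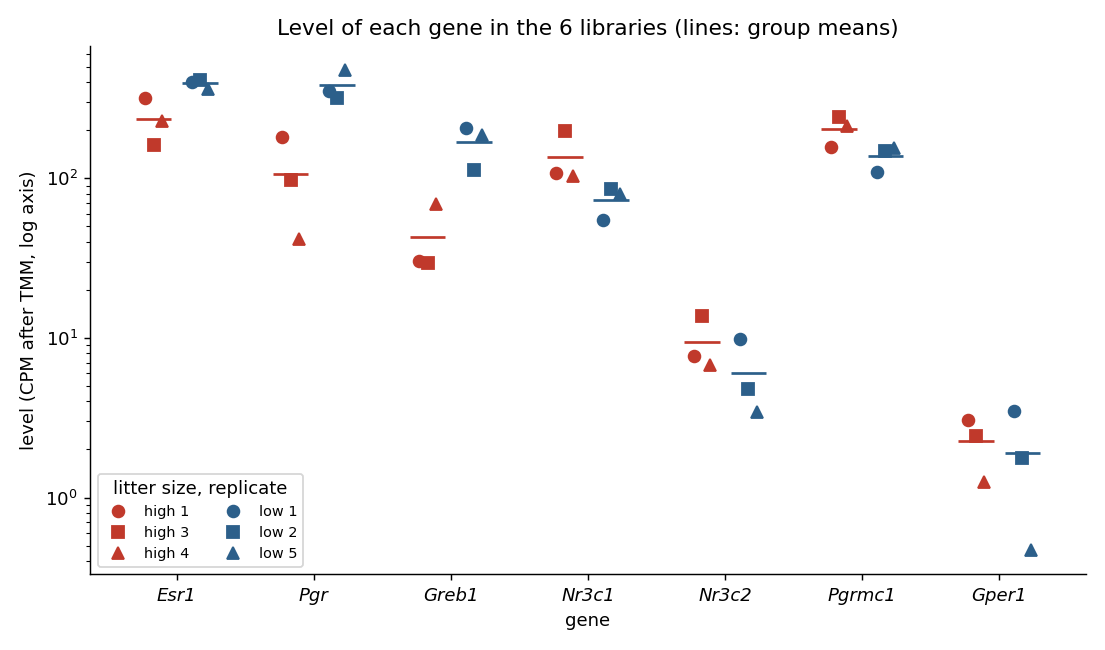
Level of each of the 7 genes (horizontal axis) in CPM after TMM on a log axis, with high libraries in red, low libraries in blue, a symbol per replicate and a line at each group mean. Pgr spans 41.4 to 477 CPM and Greb1 29.4 to 206 CPM with every high library below every low one, while the points of Nr3c2 and Gper1 intermix.

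Esr1 carries the oestrogen signal to the genome, and its level was the steadiest of the 3 genes that were lower in the high group. It had 316, 163 and 228 CPM with high litter size against 403, 415 and 362 CPM with low. The low libraries lay within 1.15-fold of each other and the high libraries within 1.95-fold, and the closest pair across the groups, high replicate 1 and low replicate 5, differed by 1.14-fold. Means were 236 ± 77.2 CPM for high and 393 ± 28.0 CPM for low litter size (SD, n = 3), a log2 fold change of -0.74 (SE 0.30, 95% interval -1.45 to -0.029, edgeR adjusted p = 0.336). High replicate 3, which had the highest adipocyte marker level, also had the lowest Esr1. Without it the log2 fold change was -0.53 (adjusted p = 0.444). For high replicate 4 against low replicates 1 and 5 it was -0.78 (adjusted p = 0.581).

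Pgr, the receptor through which progesterone acts, had the widest span of the 7 genes, 11.5-fold over the 6 libraries. Its levels were 182, 97.3 and 41.4 CPM with high litter size against 351, 321 and 477 CPM with low. The gap between the groups, from high replicate 1 to low replicate 2, was 1.76-fold, while the high libraries spread over 4.38-fold and the low ones over 1.49-fold. The means were 107 ± 70.5 and 383 ± 83.1 CPM (SD, n = 3), so the low group was 3.58-fold higher in the fit (log2 fold change -1.84, SE 0.53, 95% interval -3.11 to -0.57). The adjusted p was 0.24 with edgeR, 0.0161 with DESeq2 and 0.0408 with the likelihood ratio test, and by unadjusted edgeR p Pgr ranked 774 of 16455 genes. The lowest level was in high replicate 4, the library with the most luteal and granulosa marker RNA, and the highest was in low replicate 5, which had the most smooth muscle and stroma marker RNA. Other libraries did not all keep that order. Low replicate 1 had 461 CPM of granulosa markers and 351 CPM of Pgr. High replicate 1 had 16070 CPM of stroma markers and 182 CPM of Pgr. The part of these cell types was not tested. Without high replicate 4 the log2 fold change was -1.48 (adjusted p = 0.194) and without high replicate 1 it was -2.49 (adjusted p = 0.212). High replicate 4 against low replicates 1 and 5 gave -3.35 (adjusted p = 0.444).

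Greb1 encodes a chromatin-associated cofactor of Esr1 and is itself oestrogen-induced, and it had the smallest p of the 7 genes, ranking 247 of 16455. Its levels were 30.3, 29.4 and 69.4 CPM with high litter size against 206, 113 and 188 CPM with low. High replicate 4 was above the other 2 high libraries, low replicate 2 was below the other 2 low ones, and these closest libraries still differed by 1.63-fold. The means were 43.0 ± 22.8 and 169 ± 49.0 CPM (SD, n = 3), a 3.92-fold higher level in the low group (log2 fold change -1.97, SE 0.43, 95% interval -2.99 to -0.95). The adjusted p was 0.182 with edgeR, 0.00148 with DESeq2 and 0.00359 with the likelihood ratio test. With 1 library left out in turn the log2 fold change ran from -2.53 (without high replicate 4, adjusted p = 0.108) to -1.77 (without high replicate 3, adjusted p = 0.293). High replicate 4 against low replicates 1 and 5 gave -1.53 (adjusted p = 0.478).

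**Figure D2:**
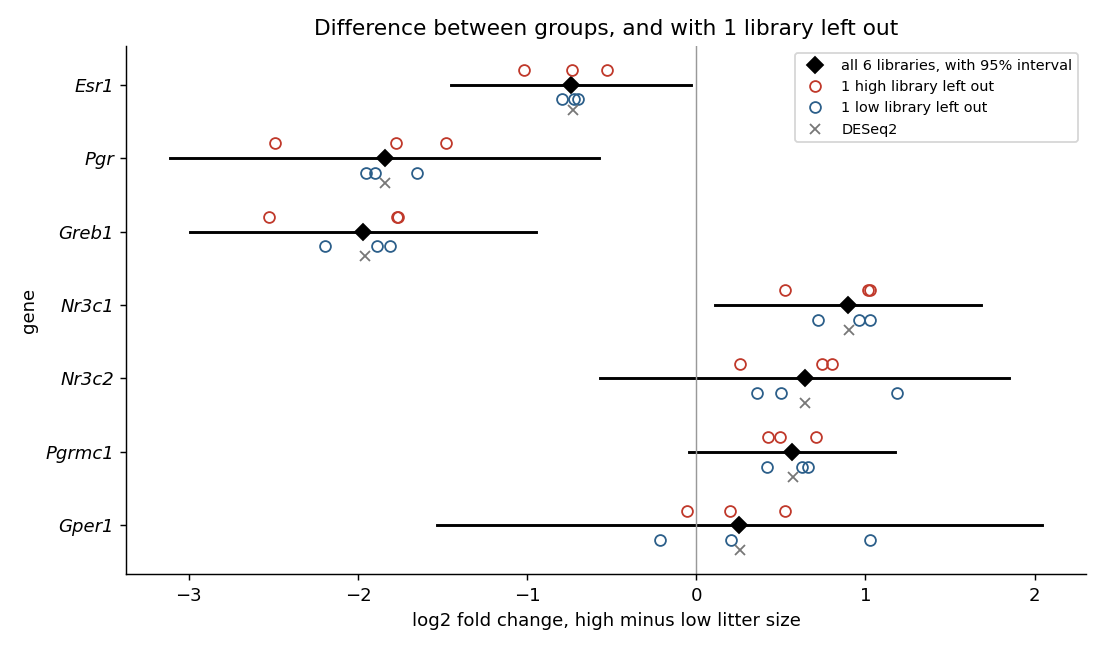
Log2 fold change of each gene, high minus low litter size (horizontal axis), with all 6 libraries and its 95% interval in black, with 1 high (red) or 1 low (blue) library left out, and with DESeq2 as a cross. Pgr, Greb1 and Esr1 stay below 0 and Nr3c1, Nr3c2 and Pgrmc1 above it with any 1 library left out, and Gper1 falls on both sides.

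Pgr and Greb1 did not rank the libraries alike. Within the high group, high replicate 1 had the highest Pgr and high replicate 4 the lowest, whereas high replicate 4 had the highest Greb1. The ratio of 2 genes within a library does not depend on how libraries are scaled, and 3 ratios were compared. The ratio of Pgr to Esr1 counts was 0.574, 0.599 and 0.182 with high litter size against 0.870, 0.772 and 1.32 with low. Every high library was below every low one, with a difference of -1.28 in the mean log2 ratio (exact two-sided permutation p = 0.1, which is the smallest 3 against 3 can give, adjusted over the 3 ratios 0.3).

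The ratio of Greb1 to Esr1 was 0.0956, 0.181 and 0.304 with high litter size against 0.511, 0.273 and 0.518 with low. High replicate 4 was above low replicate 2, and the difference in mean log2 ratio was -1.26 (exact two-sided permutation p = 0.2, adjusted 0.3). The ratio of Nr3c2 to Nr3c1 was 0.0712, 0.0691 and 0.0652 with high litter size against 0.180, 0.0559 and 0.0430 with low. Low replicate 1 alone had a ratio above 0.08, and the difference was -0.14 (exact two-sided permutation p = 1), or 0.48 without that library.

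**Figure D3:**
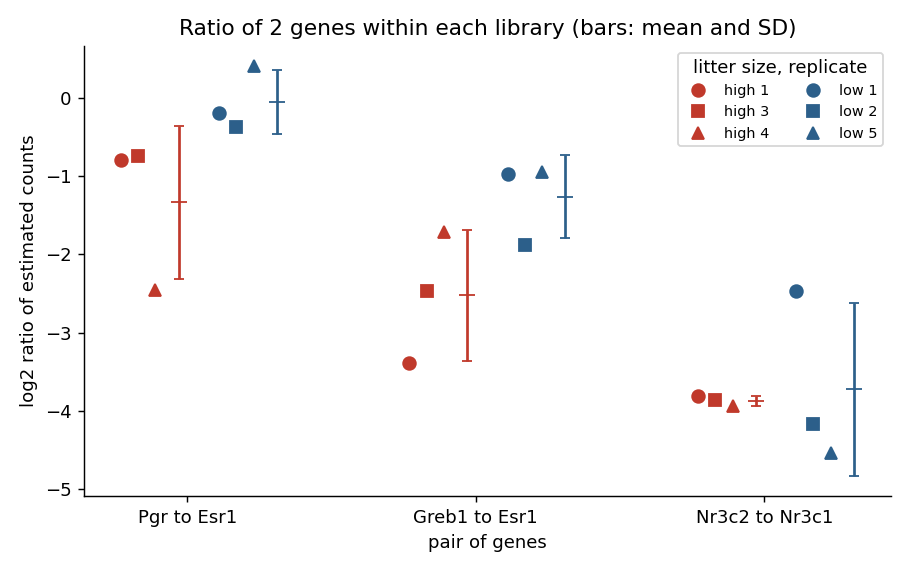
Log2 ratio of the estimated counts of 2 genes within each library (vertical axis) for 3 pairs, high libraries in red and low in blue, with the mean and SD of each group beside the points. The groups are apart for Pgr to Esr1, where high replicate 4 lies lowest at -2.46, and overlap for the other 2 pairs.

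Nr3c1, the receptor for glucocorticoids, had 108, 199 and 103 CPM with high litter size against 54.8, 85.9 and 79.9 CPM with low. The groups did not overlap, with a gap of 1.20-fold, and high replicate 3 was well above the other 2 high libraries. The means were 137 ± 53.7 and 73.5 ± 16.5 CPM (SD, n = 3; log2 fold change 0.90, SE 0.33, edgeR adjusted p = 0.313, DESeq2 adjusted p = 0.14). Without high replicate 3 the log2 fold change was 0.53 (adjusted p = 0.432), and for high replicate 4 against low replicates 1 and 5 it was 0.59 (adjusted p = 0.62). Adipocyte markers were also highest in high replicate 3, and their part in this value was not tested.

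Nr3c2, the receptor for mineralocorticoids, which also binds glucocorticoids, was a low-level gene. It had 7.72, 13.7 and 6.74 CPM with high litter size against 9.88, 4.80 and 3.43 CPM with low. High replicate 3 was again the highest, and low replicate 1 lay above high replicates 1 and 4. The log2 fold change was 0.64 (SE 0.505, adjusted p = 0.61), 0.26 without high replicate 3, 1.19 without low replicate 1 and -0.0086 for high replicate 4 against low replicates 1 and 5.

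Pgrmc1, the haem-binding membrane protein of progesterone responses, had 157, 241 and 213.5 CPM with high litter size against 109.5, 149 and 155 CPM with low. The groups did not overlap, but the closest libraries, high replicate 1 and low replicate 5, differed by only 1.01-fold. The means were 204 ± 43.1 and 138 ± 24.8 CPM (SD, n = 3; log2 fold change 0.56, SE 0.25, 95% interval -0.043 to 1.17, edgeR adjusted p = 0.375). It was the least variable of the 7 genes, with a span of 2.20-fold over all libraries.

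Gper1, the G protein-coupled receptor, rested on 12 to 60 counts a library. It had 3.07, 2.44 and 1.26 CPM with high litter size against 3.47, 1.76 and 0.468 CPM with low. Low replicate 5, with 12 counts, had an exact 95% Poisson interval of 0.242 to 0.817 CPM, and low replicate 1, with 60 counts, one of 2.65 to 4.46 CPM, which covers counting error only. The 2 libraries of 1 group were thus further apart than counting error, and the log2 fold change between the groups was 0.25 (SE 0.75, 95% interval -1.53 to 2.04, adjusted p = 0.903). The point estimates of Pgr (-1.84) and Greb1 (-1.97) lay outside that interval, but their own 95% intervals (-3.11 to -0.57 and -2.99 to -0.95) overlapped it.

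Levels of different genes were compared per kilobase of the longest annotated transcript. By the mean over the 6 libraries the order was Pgrmc1 at 92.0, Esr1 at 49.6, Pgr at 35.5, Nr3c1 at 16.3, Greb1 at 13.1, Nr3c2 at 1.30 and Gper1 at 0.818 CPM per kb. Neighbours in this order overlapped over the libraries, except Greb1 (3.65 to 25.5 CPM per kb) and Nr3c2 (0.580 to 2.32 CPM per kb). With the length of merged exons, 13661 rather than 6339 bases for Esr1, Pgr at 28.6 came before Esr1 at 23.0 CPM per kb. The order also differed between the groups, as Nr3c1 (21.3 ± 8.34) had a higher mean than Pgr (15.5 ± 10.2) in the high group, and Greb1 (21.0 ± 6.08) a higher mean than Nr3c1 (11.4 ± 2.56 CPM per kb, SD, n = 3) in the low group.

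Marker levels of cell types also varied between the libraries, not always in the order of these genes. In bulk tissue, fewer cells of a type and less RNA per cell cannot be told apart. The 9 simple epithelium markers (Krt8 and other genes of single-layered epithelium) summed to 528 to 980.5 CPM in the high and 2015 to 4564 CPM in the low libraries, with 8 of 9 genes having negative log2 fold changes and 0 at a count of 0 in any library. The 9 smooth muscle markers summed to 3978 to 12250 CPM in the high and 9273 to 17510 CPM in the low libraries, and the 8 stroma markers to 6712 to 16070 and 9669 to 22120 CPM. The 12 Mullerian tract markers, Hox and other genes of the oviduct, uterus and upper vagina, summed to 148 to 861 CPM in the high and 375 to 445 CPM in the low libraries, with none at 0. The 4 stratified epithelium markers went the other way, from 89.6 to 443 CPM against 2.85 to 14.2 CPM. The part of these cell types in the values of Esr1, Pgr and Greb1 was not tested. The 12 ratios of a gene to a marker sum that follow were computed after the data were seen and are descriptions, and the groups overlapped for 9 of them.

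All 9 smooth muscle markers and 7 of 8 stroma markers had negative log2 fold changes. High replicates 3 and 4 lay below every low library for both sums, and high replicate 1 lay inside the low range. Pgr per 1000 CPM of stroma markers was 11.3, 14.5 and 5.79 CPM with high litter size against 36.3, 24.7 and 21.6 CPM with low, and the groups did not overlap. Pgr per 1000 CPM of Mullerian tract markers also did not overlap, at 211, 504 and 281 against 935, 836 and 1071 CPM. Per 1000 CPM of smooth muscle or simple epithelium markers Pgr overlapped between the groups.

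Greb1 per 1000 CPM of simple epithelium markers was 57.3, 53.7 and 70.8 CPM with high litter size against 45.1, 40.5 and 93.0 CPM with low, with means of 60.6 ± 9.01 and 59.5 ± 29.1 CPM (SD, n = 3). Relative to smooth muscle, stroma or Mullerian tract markers Greb1 overlapped as well. Esr1 overlapped relative to smooth muscle, stroma and Mullerian tract markers. Relative to simple epithelium markers it was higher in every high library (376 ± 196 against 139 ± 46.4 CPM per 1000 CPM, SD, n = 3). That marker sum alone separated the groups, at 528 to 980.5 CPM in high and 2015 to 4564 CPM in low libraries. As Esr1 itself was lower in every high library, the direction of this ratio follows from the marker sum.

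**Figure D4:**
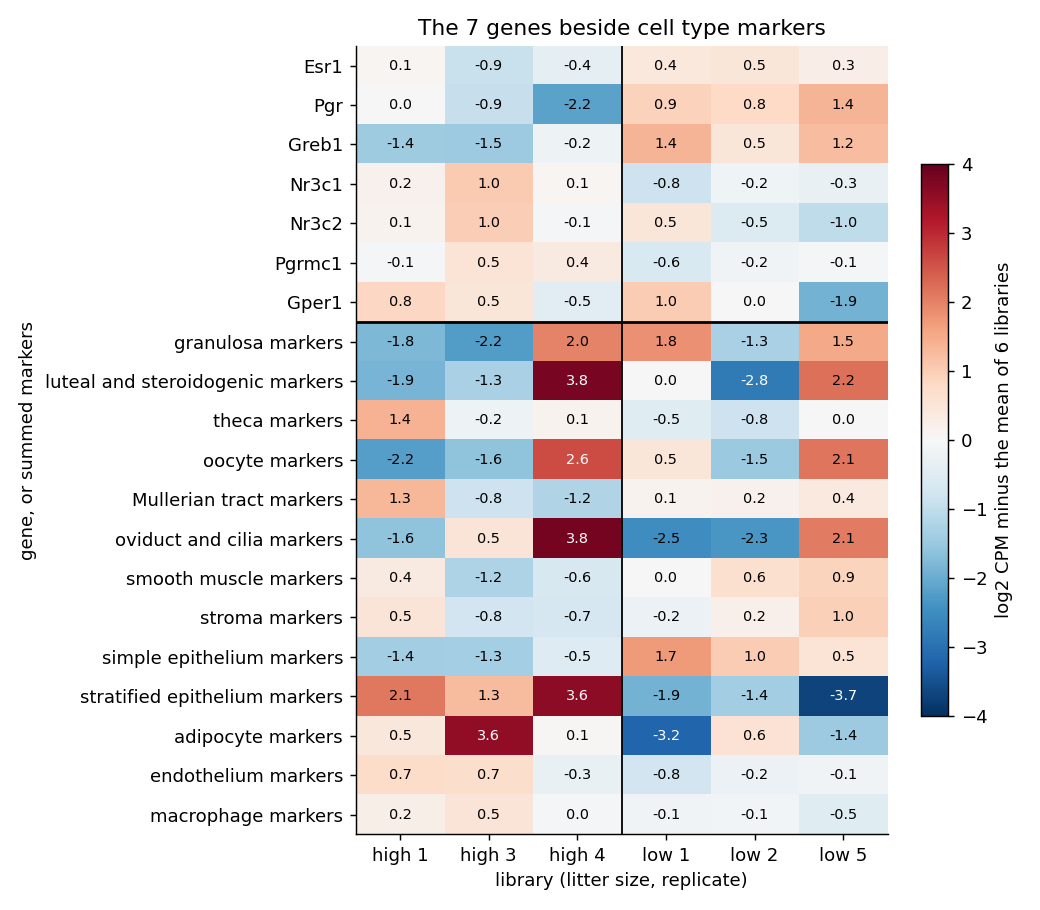
Log2 CPM of the 7 genes and of the summed markers of 13 cell types, each minus its mean over the 6 libraries (rows), by library (columns), with red for higher and blue for lower. Granulosa, luteal and oocyte markers are low in high replicates 1 and 3 and low replicate 2, and simple epithelium markers are above their mean in all 3 low libraries, as are Esr1, Pgr and Greb1. Esr1 is also slightly above its mean in high replicate 1, at 0.083.

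The genes with library profiles closest to a gene of the set were sought among 12183 genes with a mean of at least 5 CPM, by the root mean square distance between centred log2 CPM over the 6 libraries, for the 3 genes that spanned at least 2 on the log2 scale. Closest to Pgr were Ampd3, an AMP deaminase, at 0.22, Dclk1, a microtubule-associated kinase, at 0.27, and Col6a3, a collagen VI chain that is also among the stroma markers, at 0.29. Ampd3 had 49.8, 44.3 and 15.7 CPM with high litter size against 132, 123 and 172 CPM with low, and Col6a3 had 929, 560 and 338 against 1673, 1536 and 3382 CPM. Closest to Greb1 were Nmnat2, an enzyme of NAD synthesis, at 0.25, and Eva1a, a regulator of autophagy, at 0.26. Eva1a had 7.05, 4.495 and 17.9 CPM with high litter size against 36.9, 28.1 and 41.0 CPM with low. Closest to Gper1 were Pxylp1, Angptl8 and Cd83, at 0.33 to 0.38, a likeness that rests on the few counts of Gper1. None of these 8 passed with edgeR (adjusted p from 0.161 to 0.745). DESeq2 called the 3 named for Pgr (adjusted p = 0.00174 for Ampd3, 0.0478 for Dclk1 and 0.00725 for Col6a3) and the 2 named for Greb1 (2.5e-05 for Nmnat2 and 0.0206 for Eva1a). It called 0 of the 3 named for Gper1, and 6.24% of all genes tested. The genes named for Pgr and Greb1 were picked by profiles in which the groups were apart. Their DESeq2 calls were therefore largely fixed by that choice and are no separate result.

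Of the other steroid receptor genes, 10 of 11 were tested and 0 passed with edgeR, 8 having positive and 2 negative log2 fold changes (median 0.45, against 0.068 over all genes tested, of which 55.27% were positive). An unadjusted p under 0.05 was found for 3, all higher (6.56% of all genes tested). DESeq2 called 1 as higher, Paqr9 (2.15% of all genes). Paqr9 had 21.2, 224 and 10.7 CPM with high litter size against 4.97, 16.2 and 4.60 CPM with low. Its groups overlapped, and high replicate 3 was far above the rest. Esr2, the oestrogen receptor beta of granulosa cells, had 0.409, 0.437 and 22.5 CPM with high litter size against 8.49, 0.960 and 6.86 CPM with low (log2 fold change 0.52, or -3.70 without high replicate 4). It was low in the same 3 libraries as the granulosa markers, in which Esr1 was 163 to 415 CPM. Pgrmc2, the paralog of Pgrmc1, had 85.8, 263 and 62.4 against 39.3, 62.3 and 56.4 CPM (log2 fold change 1.38, adjusted p = 0.336), and 0.49 without high replicate 3. The membrane progestin receptors Paqr7 and Paqr8 had 1.53 (0.99 without high replicate 4) and 0.20.

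Among chaperones that hold the receptors ready for hormone, 13 of 13 were tested and 0 passed with edgeR (7 positive, 6 negative, median log2 fold change 0.065). An unadjusted p under 0.05 was found for 2, both higher (6.56% of all genes tested). DESeq2 called 1 as higher, the co-chaperone Dnajb1 (2.15% of all genes). Hsp90ab1, a constitutive heat shock protein 90, had a log2 fold change of -0.16, and Fkbp4, a co-chaperone that Pgr needs for full activity in the uterus, -0.48. Fkbp5, a co-chaperone and a classical glucocorticoid target, had 59.7, 112 and 285 CPM with high litter size against 25.9, 23.5 and 80.1 CPM with low (log2 fold change 1.82, SE 0.72, adjusted p = 0.333). High replicate 4 was the highest for Fkbp5, and high replicate 1 was below low replicate 5. Without high replicate 4 its log2 fold change was 0.95.

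Coregulators were close to the background of all genes, with 14 tested, 8 positive, 6 negative and a median log2 fold change of 0.014. Of these 14, 0 passed with edgeR (0.00608% of all genes tested) or DESeq2 (6.24%). Ncoa1, the steroid receptor coactivator, had 58.6 ± 7.05 against 37.3 ± 5.29 CPM (SD, n = 3, log2 fold change 0.65, SE 0.20, edgeR adjusted p = 0.255). It was the 1 gene of this list with an unadjusted p under 0.05, against 14.4% of all genes tested. Nrip1, a corepressor of ligand-bound receptors, had -0.32. Of 12 partner transcription factors 0 passed with edgeR or DESeq2 (0.00608% and 6.24% of all genes tested), and 1 had an unadjusted p under 0.05 (14.4%). Foxa2, a factor of uterine glands, had 0.96, which was 0.0063 without high replicate 1. Gata2, which regulates uterine Pgr, had -0.15, or -1.01 without high replicate 1, and Nr2f2, a factor of uterine stroma downstream of Pgr, 0.074.

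Of the genes known to be induced by oestrogen, all 15 were tested and 0 passed with edgeR. Log2 fold changes were positive for 3 and negative for 12, with 55.27% positive over all genes tested, and the median was -0.95. An unadjusted p under 0.05 was found for 7, all lower (7.82% of all genes tested). DESeq2 called 5 as lower, Aqp5, C3, Muc1, Myb and Ramp3 (4.08% of all genes). The groups overlapped for C3, at 1190, 4831 and 3303 CPM with high litter size against 29920, 21010 and 2431 CPM with low. Muc1, an epithelial mucin, had 17.5, 15.5 and 61.2 CPM with high litter size against 242, 374.5 and 119 CPM with low (log2 fold change -2.96, SE 0.69, adjusted p = 0.191), and -1.59 for high replicate 4 against low replicates 1 and 5. Ltf, the lactotransferrin of uterine epithelium, had 89.1, 813 and 3684 against 14150, 4676 and 3186 CPM, with high replicate 4 above low replicate 5 (log2 fold change -2.26, SE 1.27, adjusted p = 0.47). It was -4.06 without high replicate 4 and -1.37 without low replicate 1. Igf1, an oestrogen-responsive growth factor of stroma, had 534, 602 and 162 against 307, 244 and 611 CPM (log2 fold change 0.16). Several of these genes, Muc1 among them, are genes of simple epithelium, whose markers were also lower in the high libraries, and the part of those cells was not tested.

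Of 12 listed genes known to be induced by progesterone in the uterus, 10 were tested and 0 passed with edgeR. All 10 had positive log2 fold changes (median 1.46, with 55.27% positive over all genes tested). The groups did not overlap for 2, Irs2 and Ptch1, and overlapped for the rest. Of all genes tested, 8.75% had high above low without overlap, and 19.5% had no overlap in either direction. Hoxa10, a factor of uterine patterning, had 293, 43.0 and 29.8 CPM against 65.4, 68.0 and 98.3 CPM, so that 1 high library was above and the other 2 below every low library. Wnt4, a ligand of uterine stroma, had 11.4, 6.18 and 79.2 against 30.1, 18.8 and 18.2 CPM, with the same split through high replicate 4. In high replicate 1 Il13ra2 (31.6 CPM) and Lrp2 (165 CPM) were far above the other high libraries (at most 2.56 and 23.3 CPM). An unadjusted p under 0.05 was found for 3, all higher (6.56% of all genes tested). DESeq2 called 3 as higher, Irs2, Lrp2 and Ptch1 (2.15% of all genes). Ihh, the hedgehog ligand of uterine epithelium, had 12.7, 2.997 and 3.32 CPM with high litter size against 3.29, 0.427 and 3.12 CPM with low (log2 fold change 1.47, or 0.45 without high replicate 1). Zbtb16, a zinc finger factor induced by both progesterone and glucocorticoid, had 98.5, 104 and 17.7 against 11.2, 31.0 and 29.4 CPM (log2 fold change 1.62, SE 0.70, adjusted p = 0.361), with high replicate 4 inside the low range. Areg, the EGF family ligand amphiregulin, was too low to be tested, at 2.61, 0.125 and 1.51 against 0.173, 0.213 and 0.117 CPM. Ptch1 and Hoxa10 of this list are also among the theca and Mullerian tract markers.

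Of 11 genes that depend on Pgr at ovulation, 9 were tested and 0 passed with edgeR (5 positive, 4 negative, median log2 fold change 0.095). An unadjusted p under 0.05 was found for 1, Pparg, as higher (6.56% of all genes tested). Pparg is also a gene of fat cells and was the 1 gene called by DESeq2 (2.15% of all genes called as higher). Adamts1, the protease of the ovulating follicle, had 253, 135 and 136 CPM with high litter size against 153, 181 and 468 CPM with low (log2 fold change -0.61, or 0.070 without low replicate 5). Edn2, the endothelin of follicle rupture, was at or under 2.51 CPM in every library.

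Of 15 listed glucocorticoid-induced genes, 14 were tested and 0 passed with edgeR, 11 having positive and 3 negative log2 fold changes (median 0.75, with 55.27% positive over all genes tested). An unadjusted p under 0.05 was found for 4 as higher and 1 as lower (6.56% and 7.82% of all genes tested). DESeq2 called Klf9 as higher and Nfkbia as lower (2.15% and 4.08% of all genes). Tsc22d3, the glucocorticoid-induced leucine zipper protein, had 136, 179 and 72.9 against 45.1, 91.3 and 61.3 CPM (log2 fold change 0.97, SE 0.40, adjusted p = 0.344), with high replicate 4 below low replicate 2. Per1, a clock gene with a glucocorticoid response, had 57.1, 77.5 and 29.8 against 27.2, 37.0 and 36.3 CPM (log2 fold change 0.71). High replicate 3 was highest for Nr3c1, Tsc22d3 and Per1, and it was the library with the most adipocyte marker RNA, whose part was not tested.

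Of 13 enzymes and channels that set local steroid exposure or respond to it, 11 were tested. Log2 fold changes were positive for 7 and negative for 4 (median 0.15, with 55.27% positive over all genes tested). Calls numbered 0 with edgeR (0.00608% of all genes tested) and 0 with DESeq2 (6.24%). At an unadjusted p under 0.05 there were 0, against 14.4% of all genes tested. Hsd11b2, which inactivates glucocorticoids and so protects Nr3c2, had 158.5, 17.3 and 13.9 CPM with high litter size against 127, 225 and 268.5 CPM with low. High replicate 1 lay inside the low range and the other 2 high libraries far below it (log2 fold change -1.71, SE 0.96, adjusted p = 0.469, and -3.75 without high replicate 1). Hsd11b1, which regenerates active glucocorticoid, had 34.1, 26.1 and 13.7 against 15.9, 40.3 and 18.4 CPM (log2 fold change -0.010).

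**Figure D5:**
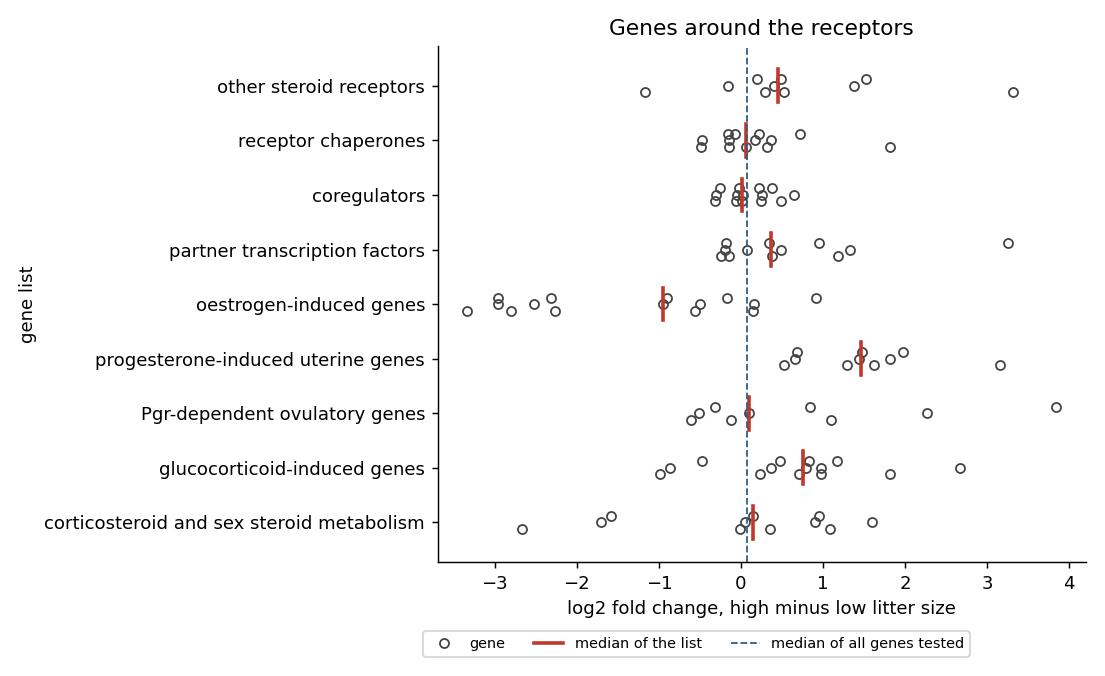
Log2 fold change, high minus low litter size (horizontal axis), of each tested gene in 9 lists around the receptors, with the median of each list in red and that of all genes tested as a dashed blue line at 0.068. Oestrogen-induced genes have a median of -0.95 and progesterone-induced uterine genes one of 1.46, with 0 genes of any list passing the edgeR test.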

How the data were processed

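Per the submitters' processing notes, which name Trim Galore, kallisto, DESeq2 and GRCm38 without versions, the authors deposited estimated counts per gene. The values are whole numbers and were treated as rounded estimates of kallisto, although no label says so; the annotation release is not given in the sources. Because kallisto shares reads among similar transcripts, values of paralogs are uncertain. Symbols were matched for 35869 of 36727 genes, and GENCODE M21 gave coordinates and lengths.

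Genes were kept by filterByExpr (minimum count 10, minimum total 15), leaving 16455, and tested with the quasi-likelihood test of edgeR 4.0.16 after TMM, high minus low, with Benjamini-Hochberg adjustment over all of them and a threshold of 0.05. DESeq2 1.42.0 (822 undefined adjusted p-values kept undefined), limma voom 3.58.1, other scalings and filters, and leaving out libraries were alternatives. Intervals are 95%. A prior count of 2 was used in the log2 levels for the closest profiles and the log2 span. The reported ratios and the figure of genes beside cell type markers used log2 values without it. The tests were checked on simulated counts. The common dispersion was 0.219.

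The genes, lists and tests were chosen with earlier results of these data known. The named genes were the 7, 25 listed by role whatever their values, and the 3 closest profiles for each gene spanning at least 2 on the log2 scale, leaving out predicted models (2 of the named genes are not reported here); Paqr9, Dnajb1, Pparg, Klf9, Nfkbia and the other DESeq2 calls of a list, Krt8, Fshr, Amh, Hoxa10, Wnt4 and Il13ra2 were named after their values were seen.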

Additional observations from a re-analysis of the deposited data

How the results depend on the processing

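No paired analysis was possible because high and low libraries have just 1 replicate number in common. Under the 17 alternatives run, Esr1, Pgr, Greb1, Nr3c1 and Pgrmc1 kept their direction. Pgr and Greb1 passed with DESeq2 (-1.84 and -1.96) and the likelihood ratio test (-1.84 and -1.97), so 2 of the 7 genes were called there, and 0 elsewhere. Over all genes edgeR called 1, DESeq2 1026, the likelihood ratio test 631, limma voom 3 and library size alone 2. With 1 library left out edgeR called 0 to 1 genes, and without high replicates 1 and 3 and low replicate 2 it called 0, where the lone high library takes its spread from the low ones. With 1 library left out in turn, or these 3 together, the ranges that crossed 0 were -0.0086 to 1.19 for Nr3c2, -0.66 to 1.02 for Gper1, -3.70 to 1.52 for Esr2, -0.022 to 0.80 for Paqr8, -1.84 to 0.25 for Gata2, -0.38 to 0.39 for Nr2f2, -1.53 to 0.65 for Igf1, -0.23 to 2.05 for Zbtb16, -1.22 to 0.070 for Adamts1, -3.06 to 1.32 for Edn2, -0.13 to 0.98 for Per1, -0.35 to 0.53 for Hsd11b1, -0.54 to 1.185 for Pxylp1 and -0.66 to 1.135 for Angptl8. The log2 ratio of Nr3c2 to Nr3c1 ran from -0.55 to 0.48 with 1 library left out. Under limma voom Esr2 had -1.18, Nr2f2 -0.029 and Hsd11b1 0.019, and under library size alone Hsd11b1 had 0.00057. The cause of these shifts was not tested. The scalings moved the median log2 fold change of all genes from 0.068 to between 0.066 and 0.077. The 5 genes whose groups did not overlap were 5 under each scaling and 5 to 6 with 1 library left out, settings chosen after seeing the data. Leaving out a library cannot make separate groups overlap, so the second count could not fall below 5 and is no check. Among the 7 genes the lowest count was 12, for Gper1. Among the others named, Edn2, Esr2, Ihh, Areg, Fshr and Amh had libraries with 0 to 8 counts.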
